A study of Arabidopsis thaliana with 4 samples.

Results

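The data described here are the full-length isoforms of 1 PacBio library that were placed in a Pfam family. PacBio sequencing reads a whole cDNA molecule, and Pfam groups proteins by the conserved domains they carry. All isoforms of the deposited list were taken, and isoforms that share the first part of their identifier form a locus. They were 24665 isoforms at 7368 loci, out of 60513 identifiers in all. The other 35848 identifiers were reference transcripts of 22263 annotated genes, which the list gives under the same family names. The PacBio library came from aboveground parts of wild-type *Arabidopsis thaliana* Col-0, grown at 23 °C by day and 18 °C by night with 16 h of light and 8 h of darkness, when the rosette was fully grown. It was made from cDNA of 1 to 6 kb. The same material was also sequenced as 3 Nanopore PCR cDNA replicates (ONT Pc), named CTRL1, CTRL2, and CTRL3. The reads recovered from their deposited gene levels numbered 8122432, 7386184, and 6835029. Each replicate was taken from several plants, as the study's methods state. ONT Pc levels are given as CPM, read counts scaled to the total of a replicate's own reads, and they served as an independent measure of the genes in this tissue. An ONT Pc value was given for 18854 of the 22263 reference genes, and the others were counted as 0 CPM.

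A plant gene can yield several mature transcripts through alternative splicing, alternative start sites, and alternative ends. These isoforms may encode the same domains, or they may lose a domain when an exon is skipped, an intron is kept, or the reading frame stops early. A leaf transcriptome is known for very abundant short messages of the light reactions, for protein synthesis genes, and for large families of kinases, receptors, and transcription factors at low levels. The tissue label was compared with 2 groups of families. The reference genes of the photosynthesis families had median levels of 1307, 1313, and 1098 CPM in CTRL1, CTRL2, and CTRL3, and those of the seed and pollen families had medians of 0 CPM in all 3 replicates. The PacBio isoforms followed the same order, with 56.8 loci per 100 reference genes in the photosynthesis families and 9.95 in the seed and pollen families. The seed and pollen group is a loose one. It also holds the pectinesterases (68 of its 392 reference genes) and glycosyl hydrolases family 28 (67), and 32.9% of its genes reached 1 CPM.

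The list holds no read count, length, or position for an isoform, and it does not pair a PacBio locus with a reference gene. It comes from 1 library, so no count below has a replicate error. Intervals are 95% Wilson intervals and cover counting error only. Locus numbers reached 14645, and 50.3% of them were in the list. Over the listed loci the highest isoform numbers added to 40561, of which 60.8% were listed. Only 14.1% of the listed loci (95% interval 13.3 to 14.9%) had every isoform number up to their highest. Isoforms outside every family are therefore not counted here.

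PacBio loci held more isoforms than reference genes held transcripts. The mean was 3.35 isoforms per PacBio locus, against 1.61 transcripts per reference gene. A single isoform was listed at 2865 PacBio loci (38.9%), and a single transcript at 13937 reference genes (62.6%). From 6 to 10 isoforms were listed at 744 PacBio loci, against 219 reference genes with as many transcripts. More than 20 isoforms were listed at 79 PacBio loci and more than 20 transcripts at 0 reference genes. The distribution was uneven, since the 74 loci with the most isoforms, 1% of all, held 2957 isoforms or 12.0% of the total. The number of domains per molecule differed little, with a mean of 2.00 families per PacBio isoform and 1.97 per reference transcript.

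**Figure D1:**
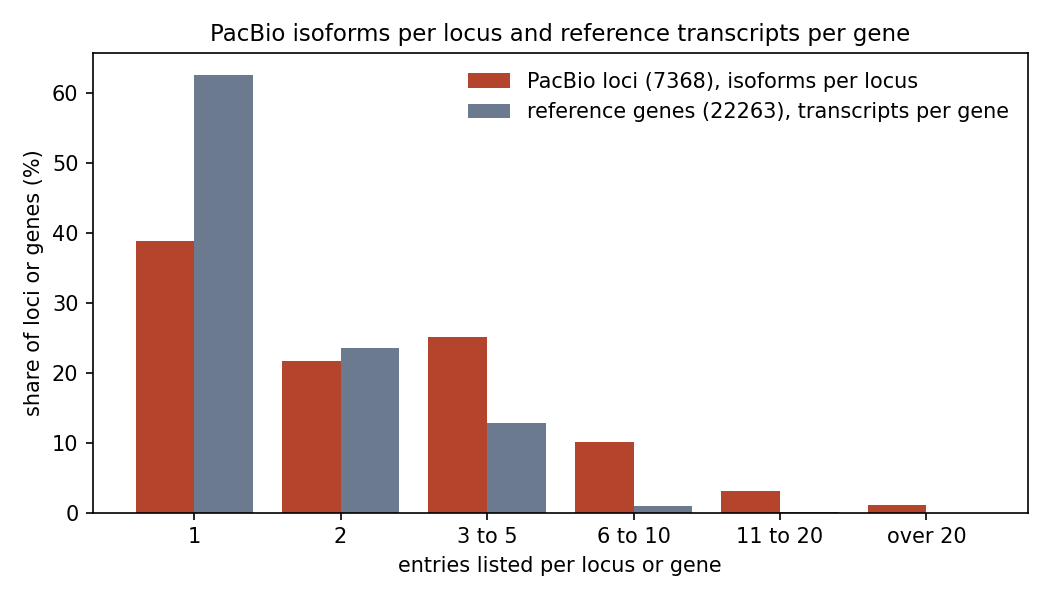
Share of PacBio loci (red) by the number of isoforms listed and of reference genes (grey) by the number of transcripts listed, in percent. The PacBio bars are lower at 1 entry (38.9%, against 62.6%) and higher from 3 entries on.

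The locus with the most isoforms, PB.10942, listed 160. Of these, 146 carried the glycine cleavage system P-protein family, the decarboxylating subunit of the mitochondrial complex that handles photorespiratory glycine, and 78 carried beta-eliminating lyase. In the same locus 9 isoforms carried the POX-type family named Associated with HOX and 8 the homeobox KN family, which mark TALE homeodomain transcription factors. PB.10942 thus joined isoforms of 5 sets that shared no family with each other.

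Several of the largest loci were mixtures of this kind. PB.9068 listed 151 isoforms over 68 families in 29 sets without a shared family, led by phosphofructokinase with 17 isoforms and ion transport protein with 15. PB.6365 listed 95 isoforms over 73 families, the most of any locus, against 30 families at most in a reference gene (AT1G67120). PB.10951, PB.4112, PB.2238, and PB.5843, with 76, 69, 65, and 65 isoforms, held between 6 and 24 such sets each. These loci list families of proteins with unrelated roles, and whether each is 1 transcription unit cannot be told from the list.

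PB.14062 and PB.14091 were each led by a few families, although each held 3 sets without a shared family. PB.14062 listed 75 isoforms, of which 60 carried the FAD-binding domain, 49 the ferric reductase NAD binding domain, and 48 the ferric reductase transmembrane component. Which enzyme this locus encodes cannot be told from these family names. PB.14091 listed 66 isoforms, of which 54 carried the Cdc48-type AAA domain and 42 the D2-small domain of ClpB, found in the Clp unfoldases of the chloroplast.

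PB.14645, the last locus number, was again a mixture, with 116 isoforms over 44 families in 12 sets. Of its isoforms 39 carried the photosystem I psaA/psaB family and 30 the C-terminal domain of ribosomal protein L2. The psaA/psaB family has reference genes in organellar genomes only.

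By family, protein kinases were listed most often. The protein kinase domain had 1751 isoforms at 471 loci, beside 1817 transcripts of 1033 reference genes. Protein tyrosine kinase, a profile that matches nearly the same proteins, had 1666 isoforms at 459 loci. Kinases pass signals on by phosphorylating other proteins, and most plant members are receptor-like. A further 3 profiles of leucine-rich repeats, the extracellular recognition modules of many such receptors, followed with 659, 569, and 569 isoforms.

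The RNA recognition motif, which binds RNA in splicing factors and other regulators, had 456 isoforms at 131 loci. The AAA domain, an ATPase module of unfoldases and motors, had 374 at 122 loci. The NB-ARC domain, the nucleotide switch of intracellular immune receptors, had 351 isoforms at 81 loci, beside 370 transcripts of 169 reference genes. Isoforms per locus exceeded transcripts per gene in these 3 families and the protein kinase domain, as over the whole list. The values were 3.72 isoforms per locus against 1.76 transcripts per gene for the protein kinase domain, 3.48 against 1.99 for the RNA recognition motif, and 4.33 against 2.19 for NB-ARC.

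The families with the most isoforms per locus were metabolic. Fructose-bisphosphate aldolase class-I, an enzyme of glycolysis and of the Calvin cycle, had 81 isoforms at 5 loci (16.2 per locus), beside 2.38 transcripts per reference gene. The NAD binding domain of glyceraldehyde 3-phosphate dehydrogenase, which acts in the same pathways, had 65 isoforms at 6 loci (10.8 per locus), beside 1.71 transcripts per gene. Beta-eliminating lyase had 122 isoforms at 12 loci (10.2 per locus), and the mixed locus PB.10942 alone held 78 of them.

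Glycosyl hydrolase family 1, to which the myrosinases that activate glucosinolates belong, had 174 isoforms at 19 loci (9.16 per locus). Cellulose synthase had 82 isoforms at 9 loci (9.11 per locus) and the starch binding domain 47 at 5 (9.40 per locus). The FAD-binding domain (16.2 per locus) and both ferric reductase families (11.5 and 10.7 per locus) also ranked in this set, and PB.14062 held most of their isoforms.

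Loci were next set beside the number of reference genes in a family. This ratio is not a detection rate, because a locus may join several genes and several loci may come from 1 gene. Over the whole list there were 33.1 loci per 100 reference genes. Among the 827 families with at least 10 reference genes the median was 37.1, with quartiles of 23.7 and 53.6.

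The highest ratios belonged to families known from mobile elements. The reverse transcriptase family, the copying enzyme of retroelements, had 18 loci beside 13 reference genes (138 per 100). The MULE transposase domain had 24 loci beside 21 genes (114 per 100), and the SWIM zinc finger, which occurs in such transposases and their domesticated relatives, 23 beside 22 (105 per 100). Only these 3 of the 827 families exceeded 100. The reference genes of the reverse transcriptase family were low in ONT Pc, with a median level of 0.143 CPM and a highest gene at 4.41 CPM. The MULE and SWIM families had medians of 2.88 and 2.79 CPM, and 16 of 21 and 16 of 22 of their genes reached 1 CPM. Not every family of this kind was high, and Reverse transcriptase-like had 4 loci beside 60 genes (6.67 per 100).

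Families with long transcripts came next. Exportin 1-like protein, a nuclear export receptor, the inactive domain of peptidase M16, the polysaccharide biosynthesis C-terminal domain, and the Sec23/Sec24 zinc finger of vesicle coats each had 10 loci beside 10 genes. The ABC1 family had 17 loci beside 18 genes, aldehyde dehydrogenase 15 beside 16, and the gelsolin repeat, which binds actin, 14 beside 15. The median transcript length of these 7 families lay between 1929 and 3868 bp.

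At the other end, 34 of the 827 families had no PacBio isoform. Prolamin-like, with 105 reference genes, plant self-incompatibility protein S1, with 68, and the pollen coat family SLR1-BP, with 43, encode small secreted proteins of reproductive tissue. Their median transcript lengths were 415, 538.5, and 420 bp, and no gene of S1 or SLR1-BP reached 1 CPM in ONT Pc. The oleosins, coat proteins of oil bodies in seeds, had 18 genes and 2 of them at 1 CPM or more.

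Other families without an isoform were expressed in the rosette. Auxin responsive protein, the SAUR family of small growth regulators, had 78 reference genes, 42 of them at 1 CPM or more and 71 with 1 exon only. Its highest gene, AT4G38860, had 73.7, 53.9, and 53.4 CPM in CTRL1, CTRL2, and CTRL3. The VQ motif family, partners of WRKY transcription factors, had 33 genes, of which SIB1 had 177, 280, and 196 CPM. The cysteine-rich secretory protein family, with 22 genes, includes PR1, a marker of salicylic acid defence, at 49.6, 44.9, and 8.34 CPM. PR1 therefore varied more between the replicates than the other genes of these families named here, and all 3 families were without an isoform although each had genes present in the tissue.

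Functional groups were formed from words in the family names, and they covered 878 families in 22 groups. Of these groups 11 had more and 11 had fewer loci per 100 reference genes than the whole list. The aminoacyl-tRNA synthetases, which charge tRNAs for translation, had the most, with 39 loci beside 56 genes (69.6 per 100). The photosynthesis group followed with 46 beside 81 (56.8), and the cytoskeleton group with 78 beside 154 (50.6). Protein kinases reached 45.7, RNA recognition and splicing 47.7, transposon-related families 42.9, chaperones 41.3, and immune receptors 40.5. With genes at 10 CPM or more as the denominator, photosynthesis (0.803 times the whole list) and RNA recognition and splicing (0.926 times) lay below the whole list.

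The small secreted peptides had the fewest, with 8 loci beside 341 reference genes (2.35 per 100). The seed and pollen group had 39 beside 392 (9.95). Of the genes of the 2 groups 15.5% and 32.9% reached 1 CPM, against 66.4% over the whole list. Counted against those genes alone they had 15.1 and 30.2 loci per 100 genes, still below the 49.9 of the whole list.

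The ribosomal proteins were low although most of their genes were expressed. They had 83 loci beside 418 reference genes (19.9 per 100). No isoform was listed for 55 of their 114 families, against 1027 of the 4032 families with reference transcripts over the whole list. Yet 84.0% of the ribosomal protein genes reached 1 CPM, and their median level was 53.5, 39.8, and 56.4 CPM in CTRL1, CTRL2, and CTRL3. The median transcript length was 955 bp, against 1587 bp over the whole list. The largest families of the group had isoforms. Mitochondrial 28S ribosomal protein S27, with a longer median transcript (2444.75 bp) and a median level of 1.86 CPM, had 10 loci beside 32 genes. The 60s acidic ribosomal protein family (775 bp) had 4 beside 14, and the L7Ae/L30e/S12e/Gadd45 family (861.5 bp) 1 beside 12. Ribosomal protein S17, S13/S18, and the RNA binding domain of L11 were among the families without an isoform. They had 6, 5, and 6 reference genes at median levels of 92.5, 137, and 100.5 CPM.

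Histones, whose core members package DNA, resembled the ribosomal protein group, with 18 loci beside 84 genes (21.4 per 100). The median length of the histone genes was 926 bp, and 41.7% of them had 1 exon. Counted against genes at 1 CPM or more, the ribosomal proteins had 23.6 loci per 100 genes and the histones 27.3. The part of length, level, and exon number in these group values was not tested separately.

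Transcription factors and ubiquitin ligase parts were also below the whole list when all genes were counted. With genes at 10 CPM or more as the denominator they lay above it, at 1.03 and 1.20 times its value. The transcription factor group had 362 loci beside 1451 genes (24.9 per 100). Among its largest families, Myb-like DNA-binding domain had 69 loci beside 271 genes, the helix-loop-helix family 36 beside 138, and the AP2 domain 18 beside 146. In the AP2 family, which includes the ethylene response factors, 96 genes had 1 exon. Auxin response factor, with longer transcripts (2511 bp at the median), had 12 loci beside 23 genes and 72 isoforms.

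The ubiquitin ligase group had 314 loci beside 1402 genes (22.4 per 100). Its F-box domain family, the substrate receptors of SCF ligases, had 88 loci beside 592 genes, and the F-box associated domain 3 beside 133. The median level of the F-box genes was 0 CPM. Among genes at 1 CPM or more the group had 47.7 loci per 100 genes, close to the 49.9 of the whole list.

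**Figure D2:**
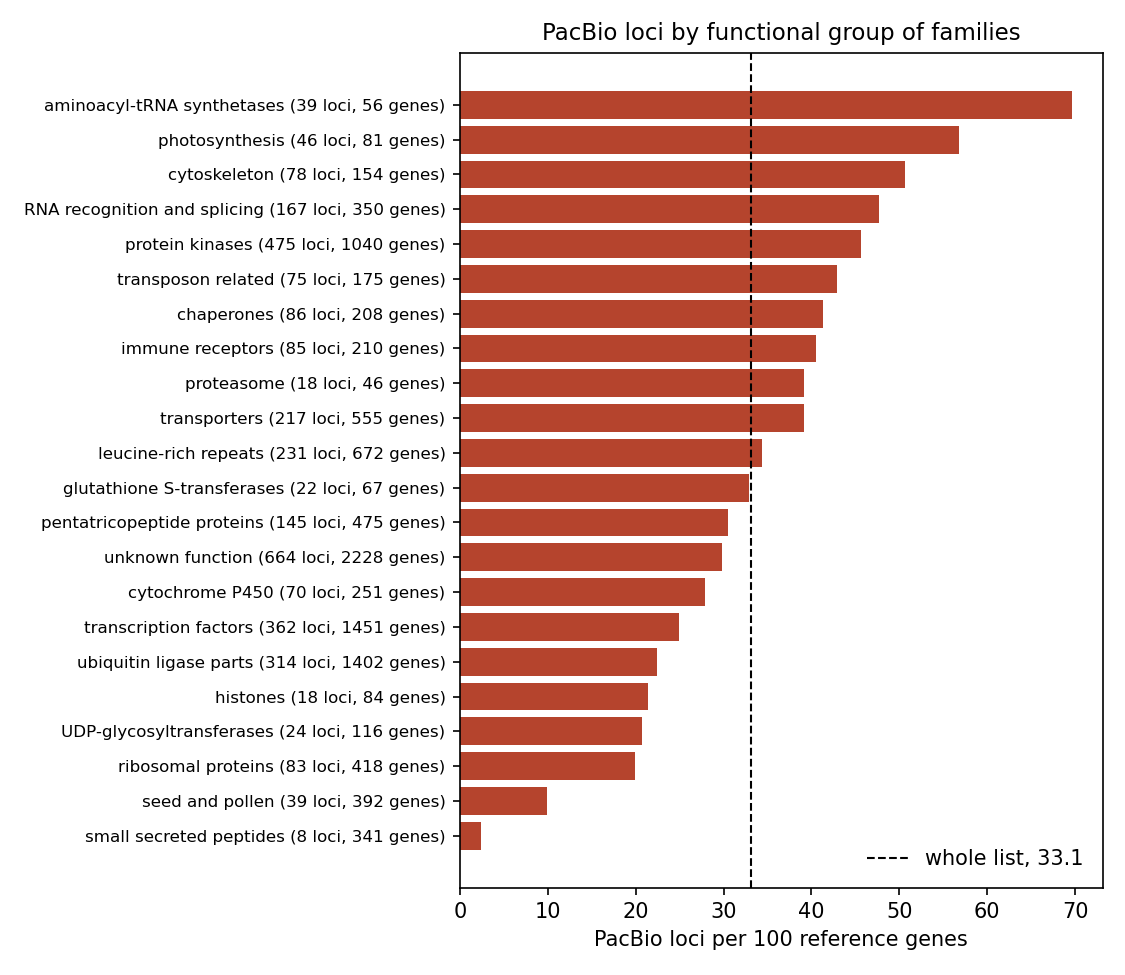
PacBio loci per 100 reference genes in each of 22 functional groups of families, with the numbers of loci and genes in brackets and the whole list at 33.1 (dashed). Aminoacyl-tRNA synthetases (69.6) and photosynthesis (56.8) are highest and small secreted peptides (2.35) lowest when all genes are counted, whereas photosynthesis lies below the whole list (0.803 times its value) with genes at 10 CPM or more.

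Within the photosynthesis group the isoforms were concentrated in a few families. The chlorophyll A-B binding proteins, which form the light-harvesting antennae, had 159 isoforms at 19 loci beside 39 transcripts of 28 genes. The psaA/psaB family had 40 isoforms at 2 loci, 39 of them at the mixed locus PB.14645. The small chain of ribulose bisphosphate carboxylase had 24 isoforms at 2 loci, and the manganese-stabilising protein of photosystem II had 17 at 2. PsbP and PsbQ of the oxygen-evolving complex had 17 isoforms at 6 loci and 11 at 3. The group had 6.96 isoforms per locus, the highest of the 22 groups, and 1.36 transcripts per reference gene.

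The next groups by isoforms per locus were the immune receptors (4.85), the aminoacyl-tRNA synthetases (3.77), and the protein kinases (3.74). The small secreted peptides (1.5), UDP-glycosyltransferases (1.67), and glutathione S-transferases (1.73) had the fewest. Without the 10 loci that held the most isoforms, an alternative chosen after seeing the data, the photosynthesis group had 6.27 isoforms per locus.

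Of the 4032 families with reference transcripts, 1027 had no PacBio isoform. Of these 583 had a single reference gene. In 920 of the 1027 families at least 1 gene reached 1 CPM in ONT Pc, in 621 at least 1 reached 10 CPM, and in 149 at least 1 reached 100 CPM. No gene reached 1 CPM in the other 107, against 35 of the 3005 families with both isoforms and reference transcripts. Genes of families with an isoform had a median transcript length of 1656 bp, with quartiles of 1203 and 2209 bp. Genes that occur only in families without one had a median of 973 bp, with quartiles of 684 and 1323 bp. A single exon was found in 14.6% of the genes of families with an isoform, against 31.1% of the genes without one in any of their families. Median levels were 4.80, 5.28, and 5.41 CPM in CTRL1, CTRL2, and CTRL3 for the genes of families with an isoform, and 2.95, 3.25, and 3.66 CPM for the other genes. The first medians were higher in each replicate, but an isoform in a family need not come from each of its genes.

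Several of the families without an isoform belong to the light reactions. PSBX (AT2G06520, chr2:2587729-2588448 in RefSeq TAIR10.1), a small subunit of photosystem II, had 7854, 7072, and 6440 CPM in CTRL1, CTRL2, and CTRL3, the highest level of any gene in these families. DRT112 (AT1G20340, chr1:7042046-7043392), a plastocyanin that carries electrons to photosystem I, had 6578, 5870, and 6358 CPM. PSBY (AT1G67740, chr1:25394031-25395249), another small photosystem II protein, had 1403, 1435, and 1070 CPM. The replicates of each gene lay close together, and each gene has 1 exon. The first 300 bases of their coding sequences, read from the RefSeq genome on the minus strand, are shown with the start codon in capitals because these are transcripts of high level that the PacBio list lacks. They cover chr2:2587919-2588218, chr1:7042974-7043273, and chr1:25394699-25394998.
PSBX: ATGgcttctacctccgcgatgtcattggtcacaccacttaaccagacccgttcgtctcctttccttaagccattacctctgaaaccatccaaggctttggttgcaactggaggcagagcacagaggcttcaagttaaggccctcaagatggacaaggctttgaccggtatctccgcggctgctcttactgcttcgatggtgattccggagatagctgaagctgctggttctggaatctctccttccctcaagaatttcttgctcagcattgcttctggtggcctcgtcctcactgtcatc
DRT112: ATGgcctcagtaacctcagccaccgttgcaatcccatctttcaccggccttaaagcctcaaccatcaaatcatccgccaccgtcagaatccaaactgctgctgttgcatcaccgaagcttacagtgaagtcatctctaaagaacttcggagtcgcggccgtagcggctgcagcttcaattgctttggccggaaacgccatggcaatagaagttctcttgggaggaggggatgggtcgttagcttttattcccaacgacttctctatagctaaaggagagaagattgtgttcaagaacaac
PSBY: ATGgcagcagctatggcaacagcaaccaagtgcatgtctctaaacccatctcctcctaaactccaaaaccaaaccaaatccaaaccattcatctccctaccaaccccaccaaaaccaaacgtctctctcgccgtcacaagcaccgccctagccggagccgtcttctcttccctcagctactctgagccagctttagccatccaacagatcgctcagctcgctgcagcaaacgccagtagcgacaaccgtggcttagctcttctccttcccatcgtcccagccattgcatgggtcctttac

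Their transcripts measured 720 bp for PSBX, 1347 bp for DRT112, and 1219 bp for PSBY. The second plastocyanin gene, PETE1 (936 bp), had 222, 208, and 186 CPM. Both plastocyanin genes carry the 2 copper-binding families that rank in this set, so these families are not independent of each other.

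Other thylakoid genes were also without an isoform in their families, and most of them have several exons. PSAN, a lumenal subunit of photosystem I with 3 exons and 936 bp, had 3937, 3741, and 3277 CPM. AT4G01150, with 5 exons and the CAAD domain, had 4059, 3606, and 3590 CPM, and PSI-P, with 7 exons and the same domain, 2650, 2454, and 2061 CPM. TLP18.3, a thylakoid protein of 1214 bp that takes part in photosystem II repair, had 956, 923, and 809 CPM, and the thylakoid phosphoprotein gene AT3G47070 (1 exon, 1142 bp) had 885, 810, and 938 CPM. The lowest value among these 5 genes was 809 CPM.

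Apart from the thylakoid, the same set held the cysteine-rich TM module of stress tolerance. Its 14 genes had a median length of 651 bp. AT3G22235 had 730, 1136, and 1374 CPM and PCC1, which is known for its response to pathogens, 475, 745, and 1041 CPM. In both genes CTRL1 was the lowest and CTRL3 the highest. AT1G29070, a gene of 819 bp for a ribosomal protein L34 of the bacterial type found in organelles, had 1148, 706, and 1008 CPM, with CTRL2 the lowest.

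**Figure D3:**
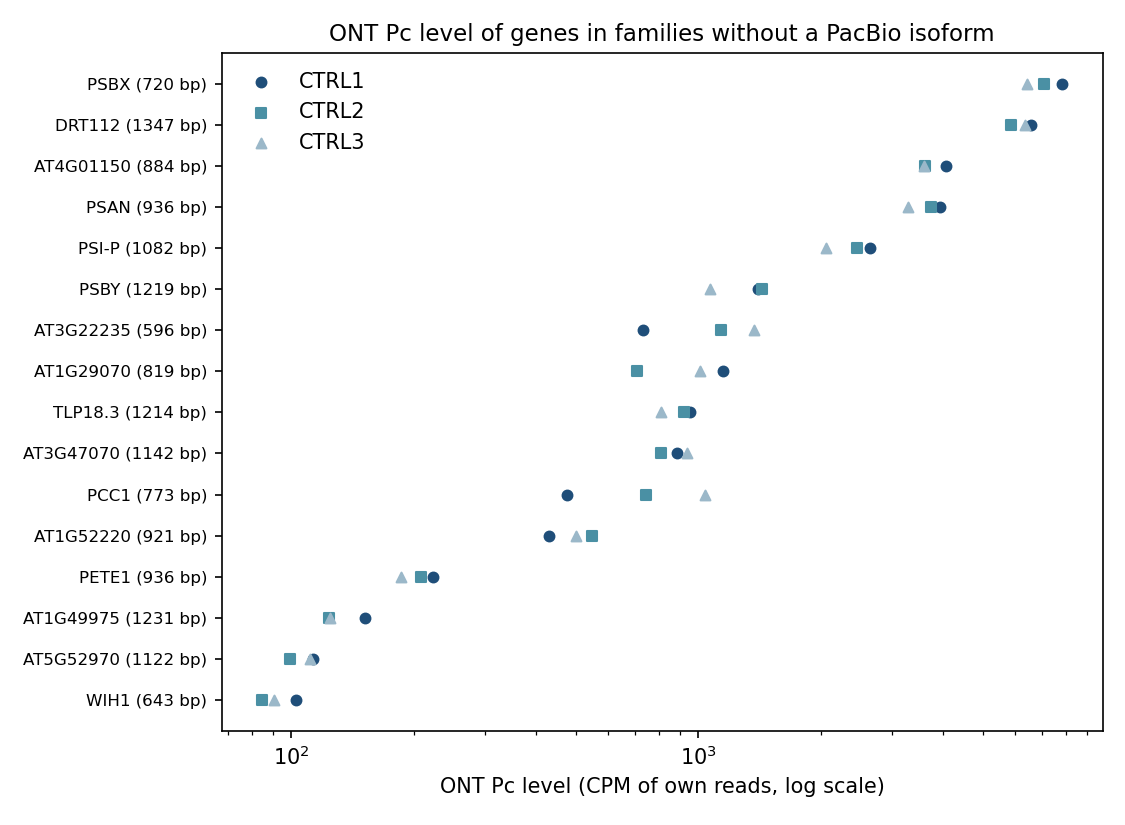
ONT Pc level in CPM of own reads (log scale) of 16 genes whose families have no PacBio isoform, in CTRL1 (circles), CTRL2 (squares), and CTRL3 (triangles), with the median transcript length in brackets. PSBX is highest with 6440 to 7854 CPM, and the transcripts of all 16 genes are at most 1347 bp long.

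Families with a single reference gene allow a closer view, because an isoform there has only 1 annotated counterpart. After families with more than 1 PacBio locus were set aside, 1216 such families remained, with 1090 genes, of which 1074 nuclear genes had a transcript length. An isoform of the family was listed for 540 of them (50.3%, 95% interval 47.3 to 53.3%). The share grew with transcript length up to about 3000 bp. With upper bounds included, it was 22.8% (37 of 162 genes) up to 1000 bp, 32.5% (90 of 277) from 1000 to 1500 bp, 115 of 230 genes from 1500 to 2000 bp, 71.9% (166 of 231) from 2000 to 3000 bp, 77.7% (73 of 94) from 3000 to 4000 bp, and 73.8% (59 of 80) above. The intervals of the last 3 classes overlap. The library was made from cDNA of 1 to 6 kb, and the part of this size range in the shares was not tested.

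The share also differed by exon number. It was 5 of 50 genes (4.35 to 21.4%) for 1 exon, 29.3% for 2 to 5, 50.7% for 6 to 10, and 76.1% for more than 10. Exon number and length go together, with a Spearman correlation of 0.61 across the 1074 genes. Within 1000 to 1500 bp an isoform was listed for 0 of 15 genes with 1 exon (up to 20.4%), 27.7% of 112 genes with 2 to 5, 37.5% of 136 with 6 to 10, and 57.1% of 14 with more than 10. Within 2000 to 3000 bp the shares were 42.9% of 7, 45.2% of 42, 70.0% of 60, and 83.6% of 122. The same order appeared from 1500 to 2000 bp and from 3000 to 4000 bp, and up to 1000 bp apart from the only gene with more than 10 exons. It did not appear above 4000 bp, where the share was 7 of 7 genes with 2 to 5 exons, 4 of 7 with 6 to 10, and 72.7% of 66 with more than 10.

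**Figure D4:**
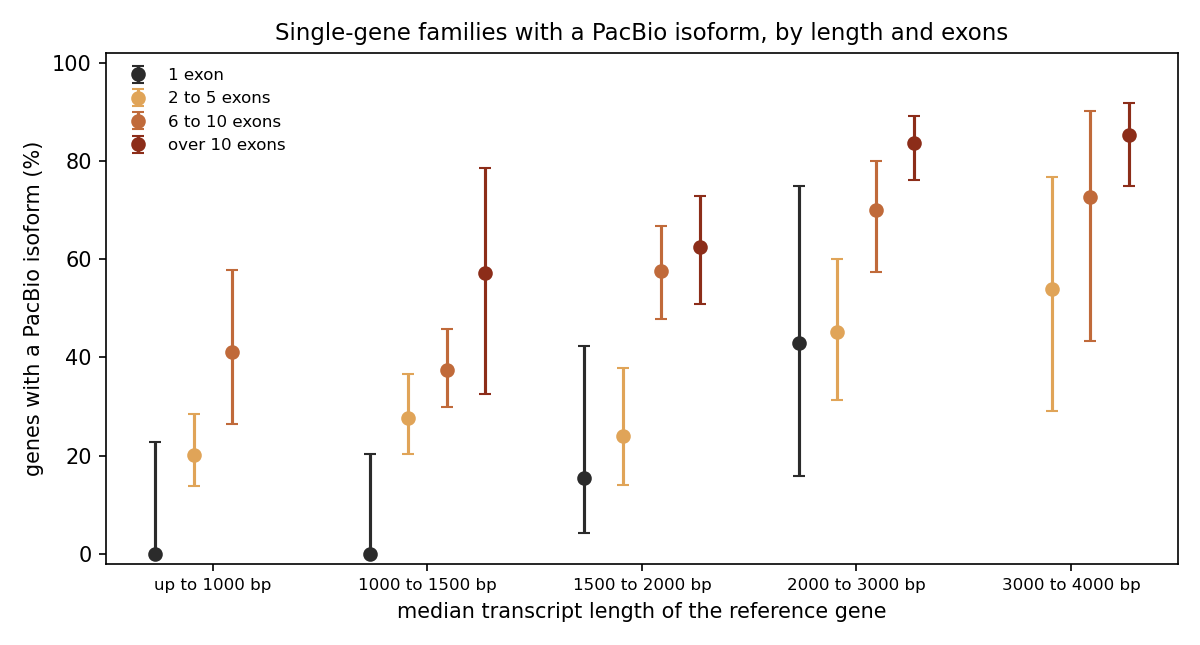
Share of single-gene families with a PacBio isoform, in percent, by the median transcript length of the gene and by its exon number (colours, from 1 exon in black to more than 10 in dark red). Bars are 95% Wilson intervals, and classes under 7 genes are not drawn. The share is 0% for genes of 1 exon up to 1500 bp and 83.6% for genes of more than 10 exons at 2000 to 3000 bp.

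By ONT Pc level the share was 6.06% (4 of 66 genes) under 1 CPM, 44.9% (157 of 350) from 1 to 10 CPM, 58.5% (336 of 574) from 10 to 100 CPM, and 51.2% (43 of 84) at 100 CPM or more. The last class was not above the third, and it held short genes, with a Spearman correlation of -0.31 between level and length. Of the 41 genes at 100 CPM or more without an isoform, 38 were at most 1500 bp long. Of all 84 genes at this level, 37 measured up to 1000 bp and 28 from 1000 to 1500 bp. The 43 with an isoform included 13 and 14 genes of these 2 classes. The part of length in the last level class was not tested. Within 2000 to 3000 bp the share was 0 of 10 under 1 CPM, 57.5% of 80, 84.6% of 130, and 90.9% of 11. Within 1500 bp and below, genes at 100 CPM or more reached 35.1% (13 of 37, up to 1000 bp) and 14 of 28 genes (above 1000 bp). In each of the 6 length classes the share was higher from 10 to 100 CPM than from 1 to 10 CPM.

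Of the 540 genes with an isoform, 247 (45.7%, 41.6 to 49.96%) had more PacBio isoforms of the family than reference transcripts, 160 had as many, and 133 had fewer. The number of isoforms was weakly related to length (Spearman 0.30), exon number (0.30), level (0.15), and the number of reference transcripts (0.13), across genes of 1 library. A longer or more abundant transcript was thus no close guide to how many isoforms were listed.

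The gene with the most isoforms was THIC (AT2G29630, chr2:12666935-12671055), which makes the pyrimidine part of thiamine. Its family had 53 isoforms at PB.4418, beside 3 reference transcripts, and THIC had 235, 257, and 438 CPM in CTRL1, CTRL2, and CTRL3. F2KP, the enzyme that sets the level of fructose 2,6-bisphosphate, had 28 isoforms beside 1 transcript at 57.0, 45.4, and 52.8 CPM. HDS, an enzyme of plastid isoprenoid synthesis, had 27 isoforms beside 2 transcripts at 260, 297, and 224 CPM. These 3 genes have transcripts of 2689 to 2892 bp at the median.

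Next came AT1G63770 with 26 isoforms, PPDK, which forms phosphoenolpyruvate, with 17, the starch-debranching gene LDA with 14, the golgin gene GC5 with 13, NUDT3 and GUN5 with 12 each, and ABCD2 with 11. GUN5, the magnesium chelatase subunit of chlorophyll synthesis, had 784, 643, and 472 CPM, the highest of the 10. LDA had 16.3, 18.95, and 19.3 CPM, the lowest. All 10 genes had a median transcript length between 2338 and 4638 bp and at least 5 exons.

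The same relations held over the larger families as a description. Across the 827 families with at least 10 reference genes, loci per 100 genes had a Spearman correlation of 0.60 with the median transcript length, of 0.50 with the median ONT Pc level, and of -0.35 with the share of genes with 1 exon. Many of these families share genes, so they are not independent points.

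Some families encoded only by organellar genes gave the opposite picture to PSBX. Of 28 such families 18 had a PacBio isoform, beside 3005 of the 4032 families with reference transcripts over the whole list. The photosystem I psaA/psaB family, the core of that photosystem, had 40 isoforms at 2 loci, although its genes reached at most 0.123, 0.677, and 0 CPM in CTRL1, CTRL2, and CTRL3. The photosystem II protein family had 11 isoforms at 2 loci, beside 0.123, 0.135, and 0.146 CPM. The MatK/TrnK family, a plastid intron maturase, had 7 isoforms at 1 locus and was at 0 CPM in all 3 replicates.

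A value of 0 still allows 3 reads, or 0.369, 0.406, and 0.439 CPM. Of the 36 organellar genes in the 28 families, 34 were under 1 CPM on average, and the highest was at 2.90 CPM. The GAG-pre-integrase domain, which belongs to retroelements, had 11 isoforms at 5 loci beside 1 mitochondrial reference gene. For this and the other organellar families, isoforms from nuclear copies cannot be told apart here.

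Isoforms of 1 locus often differed in their families. Among the 4503 PacBio loci with at least 2 isoforms, 2130 (47.3%, 45.8 to 48.8%) had a family that only some of the isoforms carried. Among the 8326 reference genes with at least 2 transcripts, 781 (9.38%, 8.77 to 10.03%) did. The share grew with the number of isoforms. With 2 entries it was 30.7% of 1594 PacBio loci, against 6.61% of 5235 reference genes, and with 6 to 10 entries 64.2% of 744, against 19.6% of 219. It reached 87.3% of the 79 loci with more than 20 isoforms. The intervals of PacBio loci and reference genes were apart in each of the 4 classes from 2 to 10 entries.

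**Figure D5:**
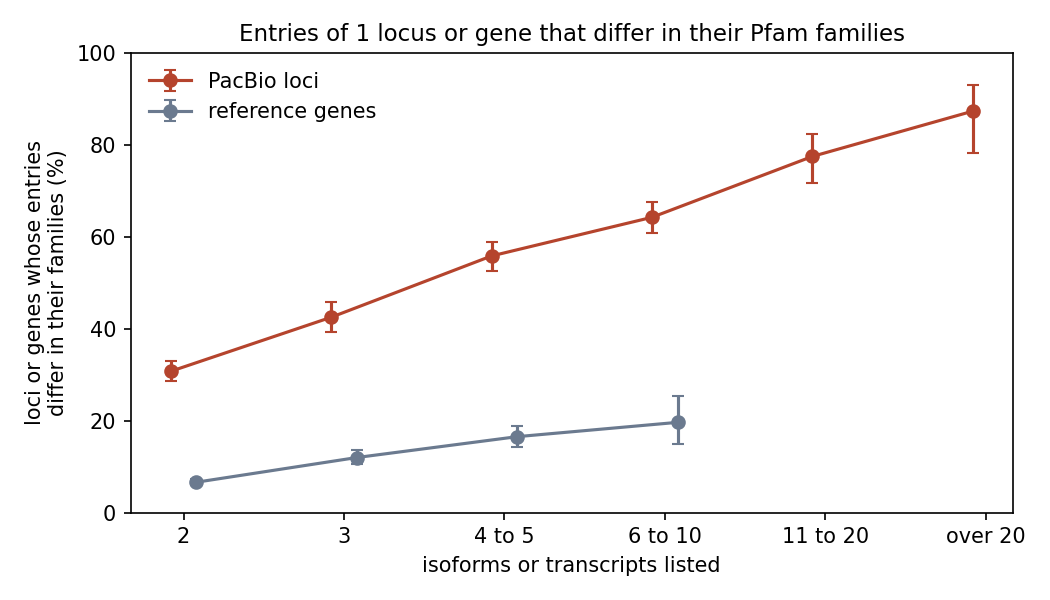
Share of PacBio loci (red) and reference genes (grey) in which some but not all isoforms or transcripts carry a family, in percent, by the number of entries listed, with 95% Wilson intervals (classes of at least 10). At 2 entries the shares are 30.7% for PacBio loci and 6.61% for reference genes.

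Only some of these loci joined unrelated functions. In 187 of the 4503 loci there were isoforms without any family in common, and in 144 (3.20%, 2.72 to 3.75%) these were families that no reference gene carries together. Without those 144 loci the share that differed was 45.6%. Among the reference genes with at least 2 transcripts, 4 (0.0480%) had transcripts without a common family.

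The share also differed between families. It was taken over 76 families carried by at least 20 loci with 2 or more isoforms, and it was higher at PacBio loci than in reference genes in all 76. Its median was 53.4% at PacBio loci and 7.32% in reference genes. An isoform is listed only if it carries a family, so a locus or gene with 1 family cannot count as differing. The share of a family therefore also depends on how often other families occur beside it, and this part was not tested. Cytochrome P450, the haem enzymes of specialised metabolism, stood lowest, with only some isoforms carrying it at 1 of 45 loci (2.22%, 0.393 to 11.6%), against 1 of 63 reference genes (1.59%). Protein phosphatase 2C followed with 5 of 24 loci (20.8%), a putative S-adenosyl-L-methionine-dependent methyltransferase family with 6 of 26 (23.1%), and the sugar transporters with 9 of 37 (24.3%). The intervals of PacBio loci and reference genes overlapped for cytochrome P450 and these families, and also for thioredoxin and the Cdc48-type AAA domain. The protein kinase domain was carried by only some isoforms at 86 of 351 loci (24.5%, 20.3 to 29.3%), against 5 of 451 reference genes (1.11%). WD repeats had 25.3%. Profiles of the same kind of domain differed, since the PPR repeat family of organellar RNA-binding proteins had 25.4% and the pentatricopeptide repeat domain 39.4%, and the 2 RNA recognition motif profiles had 28.3 and 45.3%.

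The highest shares belonged to broad profiles that overlap other families. The res subunit of type III restriction enzyme, a helicase profile, was carried by only some isoforms at 27 of 28 loci (96.4%), against 7 of 36 reference genes (19.4%). Kinase-like followed with 40 of 44 loci (90.9%), the NACHT domain with 26 of 29 (89.7%), the AAA ATPase domain with 34 of 38 (89.5%), and the phosphotransferase family with 25 of 28 (89.3%). For the NACHT domain, an NTPase profile close to NB-ARC, 3 of 27 reference genes (11.1%) differed. How families were assigned to isoforms is not given in the sources used here.

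By functional group, the share of loci where only some isoforms carried any family of the group was higher than in reference genes for all 22 groups. The intervals overlapped for cytochrome P450, UDP-glycosyltransferases, glutathione S-transferases, the proteasome, aminoacyl-tRNA synthetases, small secreted peptides, and transposon-related families. The share was 2.22% of 45 loci for cytochrome P450, 20.1% of 353 for protein kinases, 19.9% of 156 for transporters, and 20.5% of 122 for RNA recognition and splicing. It was 49.3% of 73 loci for the immune receptors (38.2 to 60.5%), against 0 of 104 reference genes, and 45.7% of 164 for leucine-rich repeats, against 1.92% of 261. The photosynthesis group had 45.9% of 37 loci, against 0 of 24 genes. The histones had 8 of 9 loci, with 1 of 27 reference genes beside them. Isoforms without any family are not listed, so a locus that carries families of 1 group only cannot count as differing. A locus that joins unrelated families also counts in these shares. The mixed locus PB.14645 had the most photosynthesis isoforms. PB.1240 had the most histone isoforms (6) and also the most transporter isoforms (14). The part of such loci in the group shares was not tested.

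Isoforms at the gaps in the numbering can lack a family. Sequences of 32 PacBio long non-coding isoforms were at hand, and 0 of these isoforms are in the family list. The study used Pfam among its filters for long non-coding isoforms, so this count follows from how they were chosen. A single isoform of these, PB.4009.18, belongs to a listed locus. PB.4009 has 19 listed isoforms with numbers up to 30, all of which carry the prenyltransferase and squalene oxidase repeat of triterpene cyclases, 10 of which carry pectic acid lyase, and 6 of which carry the A-macroglobulin complement component. The sequence of PB.4009.18 matched the RefSeq genome without a mismatch on the plus strand at chr2:2920951-2921373, in 2 exons of 178 and 147 bases around an intron of 98 bases. Its first 300 bases are shown, the first exon in lower case and the start of the second in capitals, as an isoform of a listed locus that is itself in no listed family.
PB.4009.18: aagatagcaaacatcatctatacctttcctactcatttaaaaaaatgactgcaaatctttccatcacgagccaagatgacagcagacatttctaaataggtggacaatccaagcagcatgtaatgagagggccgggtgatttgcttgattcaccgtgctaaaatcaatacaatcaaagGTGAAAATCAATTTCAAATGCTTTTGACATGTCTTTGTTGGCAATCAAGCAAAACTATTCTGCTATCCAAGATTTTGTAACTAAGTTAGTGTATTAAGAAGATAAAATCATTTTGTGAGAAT

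The match lies within AT2G07042 (chr2:2919953-2922249), an ncRNA gene on the other strand. The next gene on its own strand is CAS1 (AT2G07050, chr2:2924360-2930751), cycloartenol synthase of sterol synthesis, which starts 2986 bases further on. CAS1 carries all 4 families listed at PB.4009. The isoform has 325 bases in all.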

How the data were processed

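For PacBio, the authors clustered and polished full-length reads, mapped the isoforms, and removed redundancy, merging isoforms that differed only in their 5′ exons. How Pfam families were assigned, and the annotation, are not given in the sources used here. The submitters' processing notes name minimap2 and TAIR10. The deposited list holds identifiers only. The authors deposited ONT Pc levels as CPM. Each column was whole multiples of 1 read (100% of values within 0.01), but the divisors ran on over replicates, so CPM were recomputed from each replicate's own reads. Unused columns of per-sample values numbered 0.

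Identifiers were counted with Python 3.11.15 (pandas 2.3.3, scipy 1.17.1), tested on simulated lists. Where 2 long families continued on another line, 4 split identifiers were dropped. Transcript lengths and exons came from RefSeq TAIR10.1, which matched 35725 reference transcripts (99.7%). Functional groups were formed from words in the names, leaving out 16 families that share only a word. No test between groups was possible with 1 library. The members, lists, and groups were chosen with earlier results of these data known. By rule, families were named for the most isoforms, or for the most or fewest loci per reference gene (at least 10 genes). The rule also took the most isoforms per locus (at least 5 loci) and the highest and lowest shares of partial carriage. Families without an isoform were taken for many or highly expressed genes. The 3 largest of each group were to be named too, which was done for some groups only. Other families of a group were picked after their values were seen. Alternatives changed the minimum isoforms per locus, the genes counted, the CPM threshold, the replicates, and the loci entered.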

Additional observations from a re-analysis of the deposited data

How the results depend on the processing

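No paired analysis was possible because the PacBio library has no replicate to pair. Counting only loci with at least 2 isoforms lowered the loci per 100 reference genes to 20.2. Families without a PacBio isoform numbered 100 with at least 5 reference genes and 34 with at least 10, and those with a gene at 100 CPM or more numbered 149. The share of loci whose isoforms differ in their families was 30.7% at loci with 2 isoforms, 44.9% at loci with at most 10, and 45.6% without loci that join families no reference gene carries together. With each ONT Pc replicate left out in turn, the loci per 100 genes at 1 CPM or more ranged from 49.9 to 50.2, and the families without an isoform but with such a gene from 910 to 917.

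Each group's loci per 100 genes were also divided by the value of the whole list. Of 88 such ratios recomputed, 64 stayed on their side of the whole list and within a factor of 1.5, and 13 stayed on their side but moved further. The other 11 came to lie on the other side. With genes at 1 CPM or more as the denominator these were the pentatricopeptide proteins (1.07), cytochrome P450 (1.22), and the proteasome (0.839). With genes at 10 CPM or more they were photosynthesis (0.803), RNA recognition and splicing (0.926), transcription factors (1.03), ubiquitin ligase parts (1.20), pentatricopeptide proteins (3.94), cytochrome P450 (1.32), the proteasome (0.554), and unknown function (1.08). PacBio loci have no level of their own, so only the denominator changes. The place of the photosynthesis group above the whole list thus holds over all its genes and over those at 1 CPM or more, and the ribosomal proteins, histones, small secreted peptides, and seed and pollen families stayed below the whole list in every alternative run. The alternatives without name exclusions, the counts of groups, and those of the single-gene families were chosen after seeing the data. The list gives no reads per isoform, so a missing isoform may lie below the depth of the library. It may also lie outside the 1 to 6 kb of the library's cDNA, and neither was tested.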

Other observations

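Families with PacBio isoforms and no reference transcript numbered 59, with 118 isoforms at 71 loci. Of these families 40 had 1 isoform and 54 were found at 1 locus. The integrase core domain, which inserts retroelements into the genome, had the most, with 14 isoforms at 9 loci. Torsin, an AAA-type ATPase family known from animals, had 8 isoforms at PB.5843, a locus that also lists the AAA family on 32 isoforms. CTD kinase subunit gamma CTK3 had 5 isoforms at 3 loci, HAND, known from chromatin remodelers, 5 at 1, and cohesin loading factor 3 at 1. At 65 of the 71 loci, and in 85 of the 118 isoforms, a family with reference transcripts was also listed. Of the 10 loci with the most isoforms, 6 carried such a family.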
